A study of Mus musculus with 10 samples.

Results

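MHC class II molecules present peptides from endocytosed proteins to CD4+ T cells. An alpha and a beta chain assemble in the endoplasmic reticulum around the invariant chain Cd74, which fills the groove and directs the complex to endosomes. There proteases, cathepsin S (Ctss) among them, cut the invariant chain down to the fragment CLIP, H2-DM exchanges CLIP for other peptides, and H2-O inhibits H2-DM. In most tissues these genes are transcribed together by dendritic cells, B cells and macrophages under the transactivator Ciita, which interferon-gamma induces in many other cell types.

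The 10 genes of this machinery described here were chosen by symbol from the 24202 genes of the expression table. They are the chain genes H2-Aa, H2-Ab1 and H2-Eb1, the H2-DM genes H2-DMa, H2-DMb1 and H2-DMb2, the H2-O genes H2-Oa and H2-Ob, and Cd74 and Ctss. All 10 had a mean of at least 10 normalized counts, the minimum for the test across genes, which 16767 genes passed.

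The values come from bulk RNA sequencing of 10 tumors of MB-49, a mouse bladder cancer cell line. The tumors were grown from 100000 cells injected subcutaneously on 1 flank, and all mice, controls included, carried the hLrrc32 knock-in, in which the human gene for the TGF-beta docking receptor GARP is introduced. Tumors 1 to 5 of the PIIO-1 group came from mice given 200 ug of the anti-GARP antibody PIIO-1 into the peritoneum on day 6 and again on day 9, and tumors 1 to 5 of the PBS group came from mice given PBS. Tumors were taken on day 10 and turned into cell suspensions before RNA isolation. Strain, sex and age were not given in the labels, nor was the promoter behind the knock-in. The labels do not say that each tumor came from a separate mouse, so p-values measure the spread between these samples, which may be technical.

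Whole reads in genes ranged from 29689555 to 35299028 in PIIO-1 tumors and from 18843192 to 37581521 in PBS tumors. The deposited unit, the normalized count, is a read count divided by a size factor for the library. The 6 epithelial markers lay at unlike levels, so they do not by themselves settle the tumor label. The keratin Krt8 lay between 50292 and 65634 normalized counts in PIIO-1 tumors and between 50275 and 63492 in PBS tumors. Krt18 averaged 33496 in PIIO-1 tumors and 31214 in PBS tumors. Epcam lay between 10.9 and 23.5 in PIIO-1 tumors and between 17.6 and 29.6 in PBS tumors. Krt5 reached no more than 139 in PIIO-1 tumors and 118 in PBS tumors, with Krt14 and Cdh1 in between. The uroplakins, products of differentiated bladder lining, summed to 20.6 to 56.1 normalized counts in PIIO-1 tumors and 28.1 to 62.9 in PBS tumors, with Upk2 and Upk3a listed at 0 in some tumors. The 6 markers of red blood cells summed to 8378 to 58727 normalized counts in PIIO-1 tumors and 5493 to 12863 in PBS tumors. All 6 had a positive difference (median 1.41) and 0 passed the adjusted test, with 5 at an unadjusted p under 0.05, as were 2 of the 6 epithelial markers, Krt14 and Cdh1, both higher in PIIO-1 tumors. Their part in the class II values was not tested.

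In GRCm38, 8 of the 10 genes lie on chromosome 17. On the plus strand they are H2-Oa (chr17:34092340-34095234), H2-DMa (chr17:34119541-34139101), H2-DMb2 (chr17:34143307-34151555), H2-DMb1 (chr17:34153072-34160230), H2-Ob (chr17:34238903-34254414), H2-Ab1 (chr17:34257689-34269419) and H2-Eb1 (chr17:34305867-34316674), and H2-Aa (chr17:34282744-34287823) is on the minus strand. Cd74 and Ctss lie outside the complex, Ctss at chr3:95526786-95556403 on the plus strand. Exons of H2-Oa overlap those of the antisense gene BC051537 over 321 bases, and exons of H2-DMa overlap those of Brd2, on the other strand, over 360 bases. Whether the authors' counting used strand is not given in the sources used here, so reads in these overlaps cannot be told apart. H2-DMb1 and H2-DMb2 share 369 stretches of 50 bases, which is 22.7% of those in H2-DMb1 transcripts and 21.2% of those in H2-DMb2 transcripts, and counting could split their reads.

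Class II genes are known for a shared promoter layout, in which the X box, bound by the RFX complex that contains Rfx5, stands a short way before the Y box, bound by NF-Y. The RefSeq promoter table (GRCm38.p6) held windows for 8 of the 10 genes, and 6 of them had CNNNNAAC followed after 15 to 35 bases by GATTGG within the 250 bases before the RefSeq start of transcription. That start is not always the outermost GENCODE gene start given above: it is at position 34153191 for H2-DMb1, 34145249 for H2-DMb2 and 34092379 for H2-Oa, so the stretches of H2-DMb1 and H2-DMb2 lie inside the GENCODE genes and that of H2-Oa spans the GENCODE start. Both strands were searched, the motifs do not overlap each other, and the spelling of the first was chosen after these windows had been read. No window was held for H2-Ab1 or Cd74. The 6 stretches are shown because these 6 of the 10 genes have the pair, with the first motif and GATTGG in capitals, 5′ to 3′ on the gene's strand.
H2-Aa (chr17:34287859-34287915, minus strand): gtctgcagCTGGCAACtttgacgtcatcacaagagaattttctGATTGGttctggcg
H2-Eb1 (chr17:34305765-34305820, plus strand): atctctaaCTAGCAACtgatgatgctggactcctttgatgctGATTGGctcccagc
H2-DMb1 (chr17:34153086-34153142, plus strand): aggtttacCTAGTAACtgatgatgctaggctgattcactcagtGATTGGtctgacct
H2-DMb2 (chr17:34145115-34145171, plus strand): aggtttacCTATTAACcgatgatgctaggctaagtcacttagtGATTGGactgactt
H2-Oa (chr17:34092292-34092348, plus strand): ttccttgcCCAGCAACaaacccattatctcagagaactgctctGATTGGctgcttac
H2-Ob (chr17:34238807-34238860, plus strand): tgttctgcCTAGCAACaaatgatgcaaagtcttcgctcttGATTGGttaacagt
The motifs are 24 to 27 bases apart in these genes, and GATTGG begins 44 to 91 bases before the RefSeq start. The pair was present in 286 of 32851 promoter windows of the same length, 0.871%, and GATTGG alone in 4783, 14.6%. Of the 2 windows of H2-DMa 1 held GATTGG and neither held the pair, and the Ctss window held neither. A match is a description of letters and not a measured site.

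None of the 10 genes differed between PIIO-1 and PBS tumors beyond the spread between tumors, and the values of the groups overlapped for every one of them. Means were lower in PIIO-1 tumors for 9 genes on the log2 scale, by 0.050 (Ctss) to 0.41 (H2-DMb2), and higher for H2-Ob. The medians of H2-Aa (20722 against 18877), H2-Ab1 (21572 against 19757), H2-Eb1 (17949 against 17132) and Cd74 (47566 against 44166) were instead higher in PIIO-1 than in PBS tumors. Medians of the other genes, H2-Ob included, were lower in PIIO-1 tumors. By limma with Benjamini-Hochberg adjustment over all 16767 genes, 0 of the 10 passed an adjusted p of 0.05, against 0% of all genes, and their adjusted p lay between 0.837 and 0.978. At an unadjusted p under 0.05 the count was also 0 of 10, against 5.63% of all genes, of which 2.77% were lower and 2.86% higher in PIIO-1 tumors. A negative difference was found for 48.9% of all genes. Most of the 10 genes rose and fell together across tumors, so their signs are not separate results. The median difference of the 10 genes was -0.25, and that of all genes was 0.0027. Groups did not overlap for 0.853% of all genes and for 0 of the 10. edgeR on the recovered reads called 0% of all genes and DESeq2 0.0179%, and both called 0 of the 10, also at an unadjusted p under 0.05, which 5.81% of all genes reached by edgeR and 6.04% by DESeq2. In bulk RNA, fewer cells that transcribe class II genes and less class II RNA per cell cannot be told apart.

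**Figure D1:**
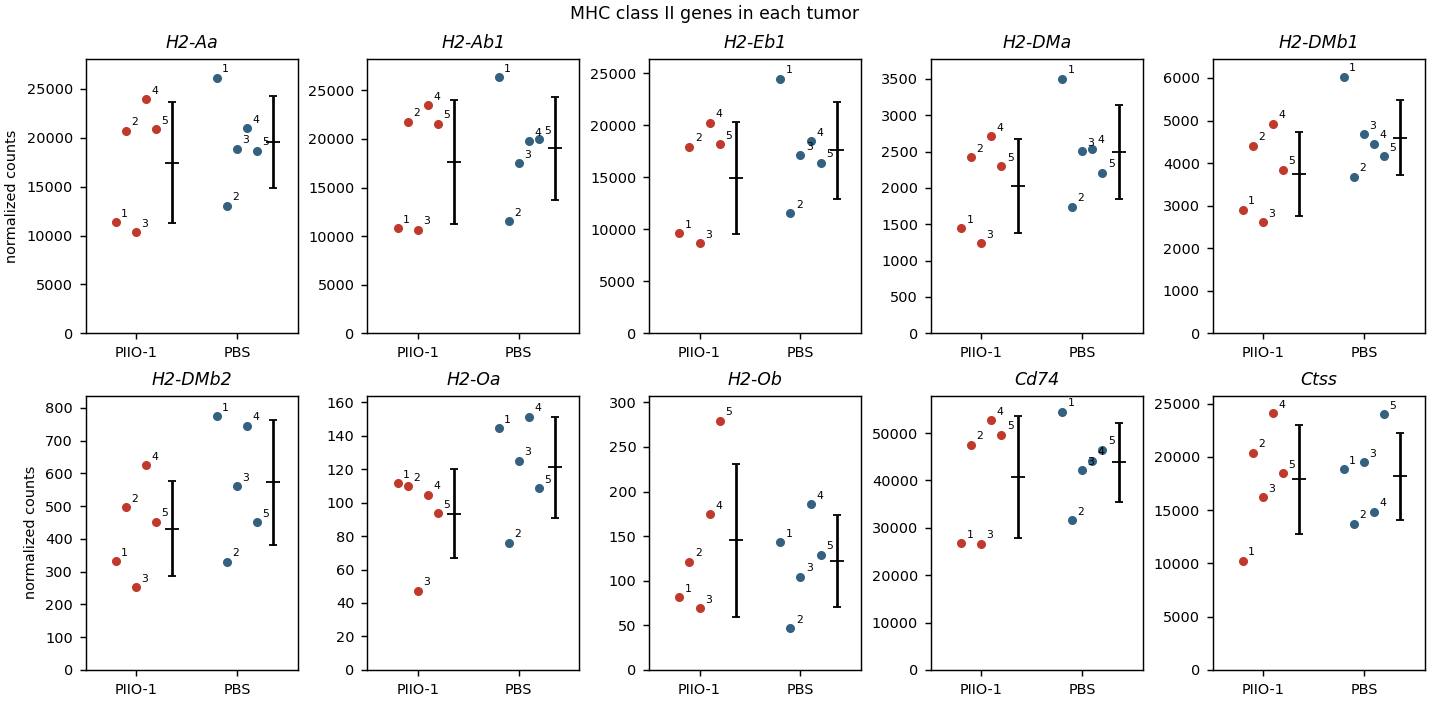
Normalized counts of the 10 genes in each tumor, 1 panel per gene, with PIIO-1 tumors left of PBS tumors; points carry the tumor number and bars give mean ± SD of 5 tumors. In every panel the groups overlap, and PIIO-1 tumors 1 and 3 and PBS tumor 2 sit low in nearly all of them.

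Of the chains that form the surface molecule, H2-Aa encodes the alpha chain of I-A. It had 11354, 20722, 10319, 23927 and 20849 normalized counts in PIIO-1 tumors 1 to 5, against 26134, 13049, 18877, 20994 and 18671 in PBS tumors 1 to 5. PIIO-1 tumors 1 and 3 were the lowest of the 10, PBS tumor 2 came next, and the other 7 were at 18671 or above. H2-Aa averaged 17434 ± 6169 in PIIO-1 tumors and 19545 ± 4715 in PBS tumors (SD, n = 5 each), a difference of -0.21 on the log2 scale (SE 0.25, 95% interval -0.76 to 0.34, limma adjusted p = 0.906).

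The beta chain of I-A, H2-Ab1, had 10826, 21761, 10649, 23448 and 21572 normalized counts in PIIO-1 tumors 1 to 5, against 26334, 11557, 17516, 19757 and 19987 in PBS tumors 1 to 5. The same 3 tumors were low, with a gap of 0.60 on the log2 scale between the highest of them (PBS tumor 2) and the next tumor (PBS tumor 3), in a whole range of 1.31. H2-Ab1 averaged 17651 ± 6354 in PIIO-1 tumors and 19030.4 ± 5313 in PBS tumors, a difference of -0.15 (SE 0.27, 95% interval -0.74 to 0.45, limma adjusted p = 0.950). Leaving out PIIO-1 tumor 1 moved the difference to 0.0086, and leaving out PIIO-1 tumor 3 moved it to 0.015.

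H2-Eb1 encodes the beta chain of I-E, whose alpha chain gene, looked for as H2-Ea and H2-Ea-ps, was not among the genes measured. It had 9655, 17949, 8657, 20257 and 18185 normalized counts in PIIO-1 tumors 1 to 5, against 24477, 11549.6, 17132, 18483 and 16399 in PBS tumors 1 to 5. PIIO-1 tumor 3 was lowest and PBS tumor 1 highest, as for the I-A chains. The difference was -0.28 (SE 0.26, 95% interval -0.85 to 0.29, limma adjusted p = 0.881).

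Cd74, the invariant chain, which also acts at the cell surface as a receptor for the cytokine Mif, had the highest counts of the 10 genes. It reached 26693, 47566, 26680.2, 52746 and 49679 normalized counts in PIIO-1 tumors 1 to 5, against 54536, 31620.4, 42149, 44166 and 46488 in PBS tumors 1 to 5. PIIO-1 tumors 1 and 3 were nearly level at the bottom, and PBS tumor 2 was again the next lowest. The difference was -0.15 (SE 0.22, 95% interval -0.63 to 0.33, limma adjusted p = 0.926), and -0.014 without PIIO-1 tumor 3.

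Ctss, the protease of the invariant chain, followed another order of tumors. It had 10275, 20412, 16213, 24095 and 18482 normalized counts in PIIO-1 tumors 1 to 5, against 18868, 13715, 19481, 14860.0 and 24016 in PBS tumors 1 to 5. PIIO-1 tumor 1 was lowest and PIIO-1 tumor 4 highest, while PIIO-1 tumor 3 was above 2 PBS tumors. The difference was -0.050 (SE 0.21, 95% interval -0.52 to 0.42, limma adjusted p = 0.978), and it turned to 0.14 without PIIO-1 tumor 1 and to 0.058 without PBS tumor 5.

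H2-DMa encodes the alpha chain of the peptide exchange factor H2-DM. It had 1448, 2424, 1239, 2708 and 2297 normalized counts in PIIO-1 tumors 1 to 5, against 3500.02, 1741, 2502, 2539 and 2211 in PBS tumors 1 to 5. PBS tumor 1 stood above all other tumors and PIIO-1 tumors 1 and 3 below them. H2-DMa averaged 2023 ± 642 in PIIO-1 tumors and 2499 ± 644 in PBS tumors (SD, n = 5 each), a difference of -0.33 (SE 0.23, 95% interval -0.84 to 0.18, limma adjusted p = 0.856).

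Both H2-DMb1 and H2-DMb2 encode beta chains of H2-DM. H2-DMb1 had 2901, 4413, 2615, 4928 and 3847 normalized counts in PIIO-1 tumors 1 to 5, against 6033, 3676, 4677, 4453 and 4156 in PBS tumors 1 to 5. It had the smallest p of the 10 genes, with a difference of -0.32 (SE 0.18, 95% interval -0.71 to 0.071, limma adjusted p = 0.837), and PIIO-1 tumors 2, 4 and 5 still lay within the range of the PBS tumors. H2-DMb2 had 332, 497, 252.3, 624 and 452 normalized counts in PIIO-1 tumors 1 to 5, against 775, 331, 562, 746 and 450.4 in PBS tumors 1 to 5. Its lowest and highest tumors were PIIO-1 tumor 3 and PBS tumor 1, as for H2-DMb1. The difference of H2-DMb2 was -0.41 (SE 0.27, 95% interval -1.01 to 0.19, limma adjusted p = 0.849).

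The chains of H2-O, the inhibitor of H2-DM, had the lowest counts. H2-Oa, the alpha chain, had 111, 109.6, 47.2, 105 and 93.5 normalized counts in PIIO-1 tumors 1 to 5, against 144, 76.1, 125, 151 and 109 in PBS tumors 1 to 5. PIIO-1 tumor 3 was lowest, followed by PBS tumor 2, and the difference was -0.39 (SE 0.26, 95% interval -0.96 to 0.17, limma adjusted p = 0.844), or -0.17 without that tumor. H2-Ob, the beta chain, had 81.6, 121, 69.4, 175 and 279.5 normalized counts in PIIO-1 tumors 1 to 5, against 143, 46.8, 105, 186 and 129 in PBS tumors 1 to 5. PIIO-1 tumor 5 was the highest and PBS tumor 2 the lowest. The difference was 0.20 (SE 0.42, 95% interval -0.72 to 1.12, limma adjusted p = 0.957), and it turned to -0.085 when PIIO-1 tumor 5 was left out and to -0.11 when PBS tumor 2 was.

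H2-Ob is known for transcription in B cells. The B cell marker Cd79a, a subunit of the B cell receptor, had 38.8, 41.1, 33.2, 79.4 and 142 normalized counts in PIIO-1 tumors 1 to 5, against 41.1, 24.4, 25.3, 32.8 and 43.9 in PBS tumors 1 to 5. PIIO-1 tumor 5 was highest here too, as it was for Cd79b (112) and Ms4a1 (67.2), while for Pax5 it was the lowest of the 10 (504) and for Cd22 it lay inside the range (235). The 6 B cell markers summed to 904 to 1152 normalized counts in PIIO-1 tumors and 822 to 1157 in PBS tumors. Of the 6, 4 had a positive and 2 a negative difference (median 0.59), 0 passed the test, and none was at 0 in any tumor. In PIIO-1 tumor 5, genes of the mitochondrial genome took 3.12% of reads, more than in any other tumor (0.986% to 2.22%), and it had the most of the globin mRNA Hbb-bs, at 31170.4 normalized counts. The part of these values in those of H2-Ob was not tested.

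Tumors of the same group differed widely. The standard deviation within a group on the log2 scale was 0.33 for H2-DMb1, 0.51 for H2-Ab1 and 0.78 for H2-Ob, against a median of 0.17 over all genes tested, which put the 10 genes between percentile 71.2 and percentile 97.2. The highest tumor exceeded the lowest by 2.04-fold for Cd74 and by 5.97-fold for H2-Ob, with the other 8 genes between. PBS tumor 2 was among the 3 lowest tumors for 10 of 10 genes, and PIIO-1 tumors 1 and 3 for 9 genes each. PIIO-1 tumor 3 was the lowest for 8 genes, and PBS tumor 1 the highest for 7.

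Together the 10 genes took 0.370% ± 0.117 of all reads in PIIO-1 tumors and 0.415% ± 0.0854 in PBS tumors (SD, n = 5 each). Divided by the length of the principal transcript, Cd74 stood first with 28846 ± 9149 normalized counts per kilobase in PIIO-1 tumors and 31058 ± 5867 in PBS tumors. H2-Aa followed with 15456 ± 5469 per kilobase in PIIO-1 tumors and 17327 ± 4180 in PBS tumors, and H2-Ab1 was close behind with 14564 ± 5242 and 15702 ± 4384 in the same groups. Ctss and H2-Eb1 came next, and Ctss was below H2-Ab1 in 7 of 10 tumors and above H2-Eb1 in 8, so these levels were not separated in all tumors. The H2-DM genes were lower: H2-DMb1 had 2664 ± 698 per kilobase in PIIO-1 tumors and 3276 ± 630.4 in PBS tumors, above H2-DMa, which was above H2-DMb2, in 10 of 10 tumors. At the end were H2-Oa, with 85.8 ± 24.5 per kilobase in PIIO-1 tumors and 111 ± 27.8 in PBS tumors, and H2-Ob, with 54.4 ± 32.04 in PIIO-1 tumors and 45.7 ± 19.2 in PBS tumors, in that order in 9 of 10 tumors. With the union of all exons as the length, Cd74 stayed first and the order from H2-DMb1 to H2-Ob was as given, while Ctss, H2-Eb1, H2-Ab1 and H2-Aa followed Cd74 in that order.

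**Figure D2:**
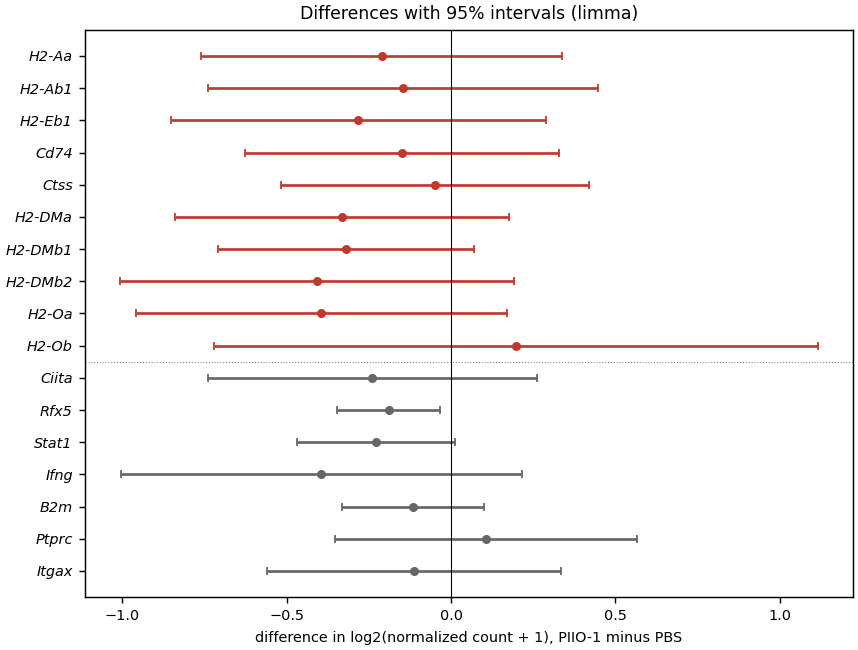
Log2 difference, PIIO-1 minus PBS, with its 95% interval from limma (5 tumors each) for the 10 genes. All 10 intervals include 0, the highest estimate is 0.20 for H2-Ob and the lowest -0.41 for H2-DMb2.

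Whether the members kept their proportions was asked with 12 log2 ratios within a tumor, each compared between the groups by a two-sided exact permutation test, whose smallest possible p is 0.00794, with Benjamini-Hochberg adjustment over the 12. None passed an adjusted p of 0.05. After this adjustment a single ratio at the smallest possible p could not pass on its own. The chains of I-A had the narrowest span of the 12, 0.27 over the 10 tumors. The log2 ratio of H2-Aa to H2-Ab1 was -0.013 ± 0.059 in PIIO-1 tumors and 0.052 ± 0.11 in PBS tumors, a difference of -0.066 (exact p = 0.254, adjusted p = 0.503). H2-Eb1 to H2-Ab1 spanned nearly as little, 0.30. It was -0.24 ± 0.053 in PIIO-1 tumors and -0.10 ± 0.11 in PBS tumors, a difference of -0.14, with the smallest p of the 12 (exact p = 0.0556, adjusted p = 0.381). Cd74 to H2-Ab1 averaged 1.23 in both groups (SD 0.085 in PIIO-1 tumors and 0.15 in PBS tumors) and spanned 0.40.

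The ratio of Ctss to H2-Ab1 was looser, with a span of 1.09, and was 0.051 ± 0.32 in PIIO-1 tumors and -0.045 ± 0.37 in PBS tumors (exact p = 0.675, adjusted p = 0.899). H2-DMa to H2-Ab1 was -3.10 ± 0.12 in PIIO-1 tumors and -2.92 ± 0.17 in PBS tumors (exact p = 0.111, adjusted p = 0.381). H2-DMb1 to H2-Ab1 was -2.19 ± 0.23 in PIIO-1 tumors and -2.02 ± 0.24 in PBS tumors (exact p = 0.294, adjusted p = 0.503). Both H2-DM ratios were thus lower on average in PIIO-1 tumors by less than the test could separate.

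H2-Ob to H2-Oa had the widest span, 2.26. It was -0.45, 0.15, 0.54, 0.73 and 1.57 in PIIO-1 tumors 1 to 5, against -0.0095, -0.69, -0.26, 0.29 and 0.25 in PBS tumors 1 to 5. PIIO-1 tumors 3, 4 and 5 lay above every PBS tumor, while PIIO-1 tumor 1 lay below 4 of them, and the difference of 0.59 did not pass (exact p = 0.159, adjusted p = 0.381). H2-Ob to H2-DMa, inhibitor to target, differed by 0.53 (exact p = 0.159, adjusted p = 0.381) and H2-Oa to H2-DMa by -0.063 (exact p = 0.794, adjusted p = 0.944).

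Set against other genes, H2-Ab1 to Ptprc, the pan-leukocyte antigen CD45, was 0.45, 0.71, 0.064, 0.44 and 0.31 in PIIO-1 tumors 1 to 5, against 0.85, 0.35, 0.67, 0.63 and 0.74 in PBS tumors 1 to 5. The groups overlapped through PIIO-1 tumor 2 and PBS tumor 2, and the difference was -0.25 (exact p = 0.111, adjusted p = 0.381). H2-Ab1 to B2m, the light chain of MHC class I, was -2.21 ± 0.46 in PIIO-1 tumors and -2.18 ± 0.41 in PBS tumors (exact p = 0.865, adjusted p = 0.944). Ciita to H2-Ab1 was -2.69 ± 0.16 in PIIO-1 tumors and -2.59 ± 0.21 in PBS tumors (exact p = 0.452, adjusted p = 0.679).

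**Figure D3:**
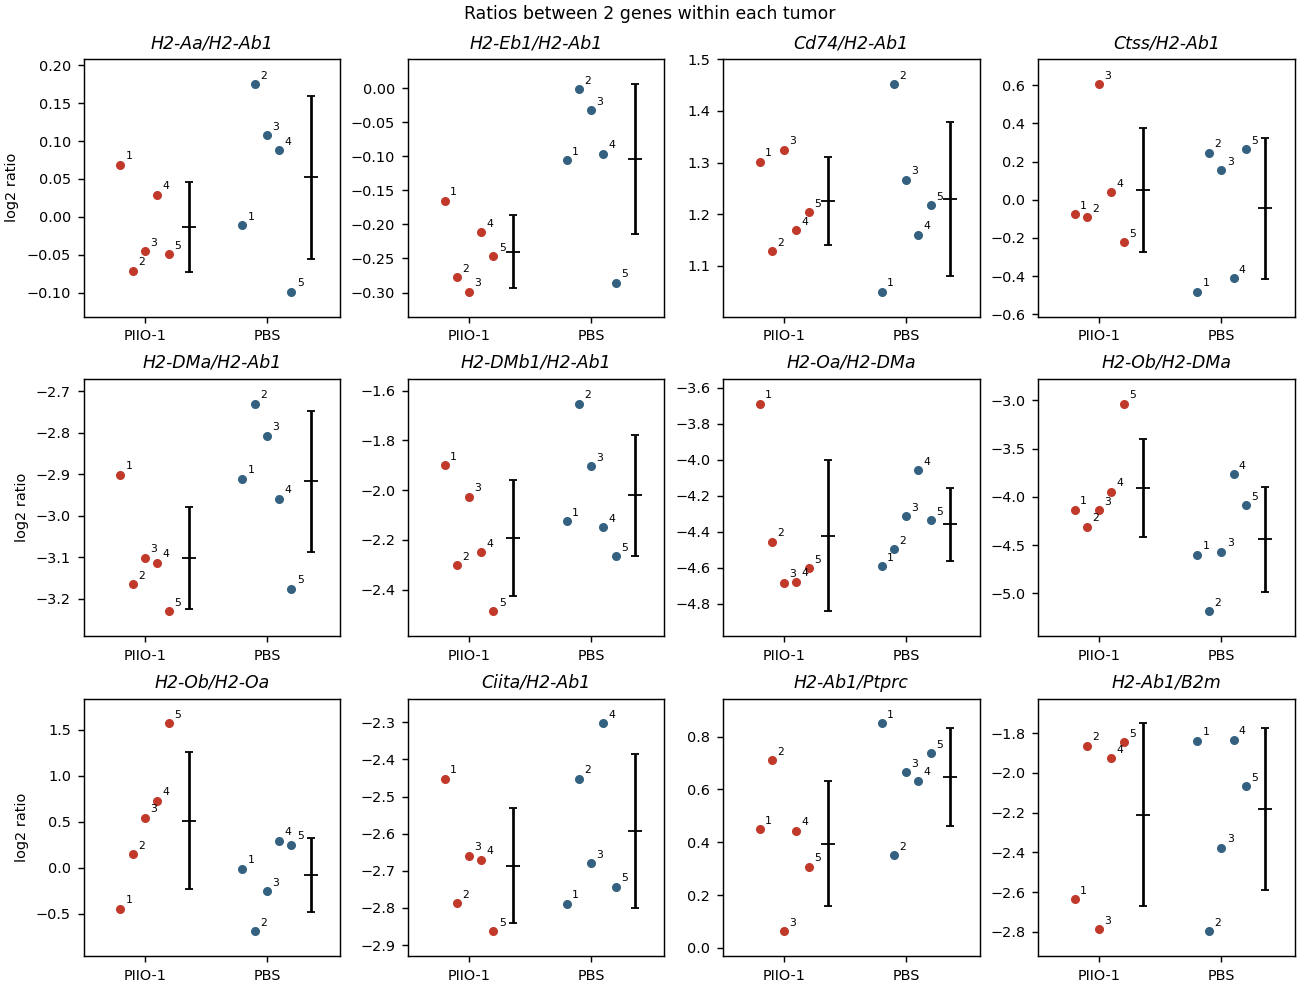
Log2 ratios of normalized counts within each tumor, PIIO-1 left of PBS, with tumor numbers and mean ± SD of 5 tumors. The ratio of H2-Aa to H2-Ab1 spans 0.27 over the 10 tumors and that of H2-Ob to H2-Oa 2.26.

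The genes that control class II transcription gave no call. Ciita, the transactivator, had 1978, 3151, 1685, 3684 and 2966 normalized counts in PIIO-1 tumors 1 to 5, against 3810.5, 2112, 2735, 4003 and 2986 in PBS tumors 1 to 5, a difference of -0.24 (SE 0.23, 95% interval -0.74 to 0.26, limma adjusted p = 0.886). Its 3 lowest tumors were those of the class II chains. Rfx5, the RFX subunit that binds the X box, had 1034, 991, 991, 1013 and 812 normalized counts in PIIO-1 tumors 1 to 5, against 1083, 1090.4, 1090.1, 1206 and 1039.5 in PBS tumors 1 to 5. All 5 PIIO-1 values were below all 5 PBS values, a pattern in that direction found for 0.459% of all genes, but the difference was small and did not pass the adjustment (-0.19, SE 0.071, 95% interval -0.35 to -0.034, limma adjusted p = 0.837). Of the 10 transcription genes examined, 5 had a positive and 5 a negative difference with a median of -0.0047, 0 passed the test, and 1 reached an unadjusted p under 0.05.

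The other steps of the pathway gave no call either. Among 11 genes for endosomal proteases, their inhibitor Cst3 and the reductase Ifi30, 6 had a positive and 5 a negative difference with a median of 0.013. The smallest p belonged to Ctse, cathepsin E, at 298 ± 113 normalized counts in PIIO-1 tumors and 241 ± 40.4 in PBS tumors (difference 0.24, SE 0.23, limma adjusted p = 0.886), and to Sppl2a, which cuts the remnant of Cd74 in the membrane (-0.074, SE 0.072, limma adjusted p = 0.889). Among 6 genes of surface turnover, 3 were on each side of 0 with a median of 0.00095. Cd83, which keeps class II at the surface, differed by 0.25 (SE 0.26) and March1, the ubiquitin ligase that removes it, by -0.17 (SE 0.19).

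The list for Cd74 as a receptor held its ligand Mif, Ddt, and the receptor partners Cd44 and Cxcr4. All 4 had a positive difference (median 0.084), with Cxcr4 at 3491 ± 1605 normalized counts in PIIO-1 tumors and 2445 ± 566 in PBS tumors (difference 0.43, SE 0.29, limma adjusted p = 0.847) and Cd44 at a difference of 0.088 (SE 0.088). The receptors of class II on T cells, Cd4 and Lag3, differed by -0.098 (SE 0.26) and -0.25 (SE 0.25). H2-Eb2 and Btnl2, other genes of the locus, differed by -0.15 (SE 0.40) and -0.037 (SE 0.21). In each of these lists 0 genes passed the test and 0 reached an unadjusted p under 0.05.

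Markers of the cells that transcribe class II genes were set beside these levels. The 8 dendritic cell markers summed to 4411 to 8039 normalized counts in PIIO-1 tumors and 3786 to 7314 in PBS tumors, with 6 positive and 2 negative differences and a median of 0.33. The 8 macrophage markers summed to 30422 to 56707 in PIIO-1 tumors and 38538 to 61727 in PBS tumors, with 4 on each side of 0 and a median of -0.0079. In both lists 0 passed the test, and their part in the class II levels was not tested. Itgax (CD11c), carried by dendritic cells and many macrophages, had 2782, 4752, 2836, 4707 and 4293 normalized counts in PIIO-1 tumors 1 to 5, against 4979.7, 2624, 3975, 4488 and 4829.9 in PBS tumors 1 to 5. Its 3 lowest values were in PIIO-1 tumors 1 and 3 and PBS tumor 2, the tumors lowest in H2-Ab1. The same 3 tumors were also lowest for Ciita, Ptprc and Csf1r, a macrophage growth factor receptor, but not for C1qa, a complement gene of macrophages.

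Since H2-Ab1 split the tumors into 3 low and 7 high ones, its relation to 12 other genes was computed within the 7. None passed Benjamini-Hochberg adjustment over the 12, and the smallest adjusted p was 0.274. Itgax had r = 0.75 (exact permutation p = 0.0496 over 5040 pairings, adjusted p = 0.274) and rho = 0.68 (exact p = 0.110), with r = 0.68 after the 2 tumors farthest from the median of Itgax were left out. Ptprc had r = 0.68 (exact p = 0.0883) and rho = 0.71, and Ciita r = 0.58 (exact p = 0.173) and rho = 0.43. Csf1r had r = 0.20 (exact p = 0.671) and rho = 0.32, and C1qa r = -0.045 (exact p = 0.924) and rho = 0.0. With the 2 tumors farthest on its own axis left out, r was 0.96 for Ptprc, 0.87 for Ciita, 0.70 for Csf1r and -0.35 for C1qa, so these values depend on which tumors enter, and the correlations were not compared with each other.

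**Figure D4:**
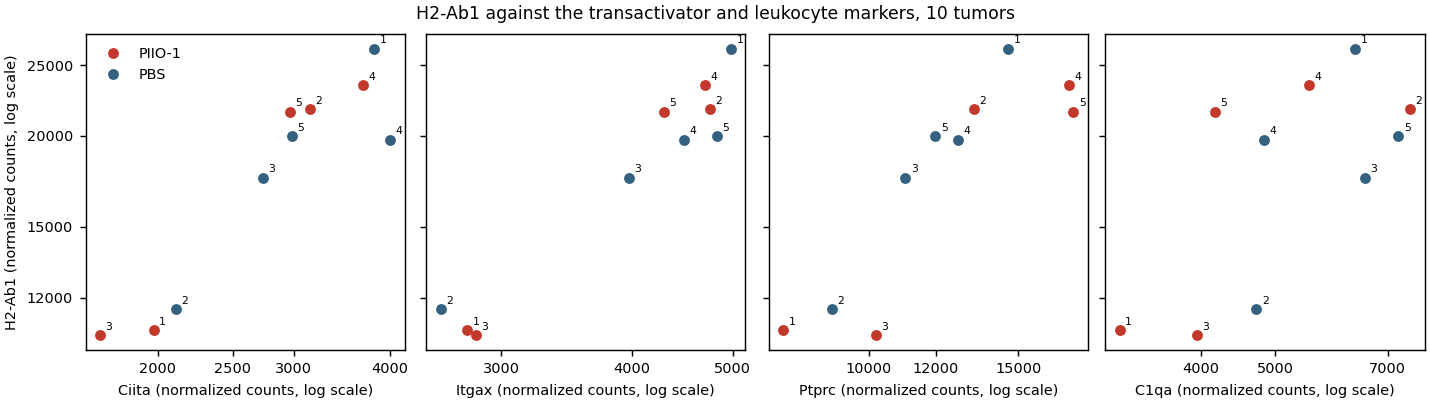
H2-Ab1 against Ciita, Itgax, Ptprc and C1qa in the 10 tumors, normalized counts on log axes, with tumor numbers. PIIO-1 tumors 1 and 3 and PBS tumor 2 lie apart at 10649 to 11557 counts of H2-Ab1, and the 7 others start at 17516.

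The genes most like the class II level were ranked by Pearson r over the 10 tumors, after removal of group means, with the mean log2 value of H2-Aa, H2-Ab1, H2-Eb1 and Cd74. Among 11810 genes that were not members and had a mean of at least 50 normalized counts, the first 8 were Pld4 (r = 0.981), Klra8 (0.978), Slain1 (0.978), Rassf4 (0.976), Nlrc4 (0.975), Nfkbie (0.974), Klrk1 (0.973) and Map4k1 (0.972). Klra8 belongs to a receptor family of near-identical copies, so its reads are uncertain. Pld4 had 1130.0, 2306, 1259, 2268 and 2163 normalized counts in PIIO-1 tumors 1 to 5, against 2214, 1215, 1653, 1944 and 1707 in PBS tumors 1 to 5, low in the same 3 tumors. On the same measure H2-DMa had r = 0.978, H2-DMb1 0.946, Ciita 0.945, H2-DMb2 0.903, H2-Ob 0.840, Ctss 0.712 and H2-Oa 0.669. The points are the same 10 libraries for every gene and the 3 low tumors carry much of the spread, so these r are a description only.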

How the data were processed

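The table holds 1 column of normalized counts per tumor. The deposited values, a signal that is never negative, are by the table's name scaled by DESeq2; the submitters' processing notes name HISAT2, featureCounts, DESeq2 and GRCm38. Their versions, the annotation and the use of strand are not given in these sources. Dividing each column by its smallest step gave whole reads for 100% of the values within 0.001 read; for PIIO-1 tumors 1 and 3 a read is worth 0.995 and 1.01 normalized counts, too close to 1 for the step alone to show that a scaling took place. No columns belonged to other samples.

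Tests used limma 3.58.1 (R 4.3.3) with an intensity trend on log2(normalized count + 1), which understates changes of low genes, over the 16767 genes that averaged 10 or more, two-sided, Benjamini-Hochberg adjusted, threshold 0.05. Alternatives were edgeR 4.0.16 and DESeq2 1.42.0 on the recovered read counts, other pseudocounts, filters and scaling, and each tumor left out. The limma and edgeR steps were tested on simulated data, and the DESeq2 step was not. No library was a copy of another (lowest chi-square per gene over 45 pairs, 9.93). Coordinates and lengths are GENCODE M21.

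Besides the 10 members, the text names genes of the ratios, correlations and likeness ranking and, for each pathway list, those with p under 0.05 or else the 2 with the smallest p; marker genes and Pld4 were picked for their values. Some genes that this rule names are left out of the text. Members and lists were chosen with earlier results of these data known.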

Additional observations from a re-analysis of the deposited data

Results flagged for a closer look

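In 4 of 68 sets of 5 tumors examined, 1 tumor lay so far from the other 4 that its gap to the nearest exceeded 0.71 of the whole range. Chance alone gives such a gap in about 1 in 20 sets. All 4 were PIIO-1 tumors. H2-Oa had 47.2 normalized counts in PIIO-1 tumor 3, and the nearest PIIO-1 tumor had 93.5. The log2 ratio of H2-Oa to H2-DMa was -3.69 in PIIO-1 tumor 1, with the nearest at -4.45. The log2 ratio of H2-Ob to H2-DMa was -3.03 in PIIO-1 tumor 5, with the nearest at -3.95. Rfx5 had 812 normalized counts in PIIO-1 tumor 5, and the nearest had 991; without that tumor the difference between the groups was -0.13.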

How the results depend on the processing

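No alternative called any of the 10 members. Over all genes, DESeq2 called 3 and every other alternative 0; the cause was not tested. With each tumor left out in turn, the difference changed sign for H2-Ab1 (-0.31 to 0.015), H2-Ob (-0.11 to 0.41) and Ctss (-0.17 to 0.14), and kept its sign for the other 7 members. The ratio differences that changed sign in this way were Cd74 to H2-Ab1 (-0.049 to 0.052), Ctss to H2-Ab1 (-0.043 to 0.17), H2-Oa to H2-DMa (-0.25 to 0.013) and H2-Ab1 to B2m (-0.18 to 0.11). None of the 12 ratios passed under any alternative, which for a single ratio was fixed by the test. With PBS tumor 5 left out, H2-Eb1 to H2-Ab1 reached the smallest possible p (exact permutation p = 0.00794), and its adjusted p was 0.0952. With the replicate block the smallest possible p was 0.0625, so no ratio could pass there. Same-numbered tumors showed no shared deviation (r -0.21 to 0.095). The labels give only replicate numbers, so whether same-numbered tumors were paired cannot be told from these values. With the replicate block, 0 genes and 0 members were called.

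Correlations with H2-Ab1 over all 10 tumors span the gap between 3 low and 7 high tumors and were not read as relations. Within the 7 tumors, an alternative added after the data were seen, r no longer passed the adjustment for Ciita (0.58), Irf1 (0.71), Ifng (0.68), Ptprc (0.68), Csf1r (0.20), Itgax (0.75) and Cd3e (0.49), and turned to -0.045 for C1qa. With the 2 tumors farthest on the x axis left out of the 10, r was 0.67 for Irf1, 0.58 for Ifng, 0.61 for Csf1r and 0.29 for Cd3e, no longer past the threshold, and turned to -0.49 for Hbb-bs. In that setting Itgax (0.96), Ptprc (0.87) and Ciita (0.85) still passed the threshold. With group means removed, C1qa (0.68) and Cd79a (0.69) passed it.

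The lowest count of any member was 47 reads (H2-Oa). The limits are 5 tumors a group, intervals of -0.96 to 0.17 and -0.72 to 1.12 for H2-Oa and H2-Ob, the most weakly transcribed members, and an unstated use of strand in counting.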
